A study of Mus musculus with 4 samples.

Results

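The transcripts of 10 large damage signalling and repair proteins, Atm, Atr, Brca1, Brca2, Prkdc, Parp1, Trp53bp1, Mdc1, Rif1 and Rad50, were followed in an RNA immunoprecipitation and sequencing (RIP-seq) experiment on SAFB (scaffold attachment factor B). They were picked by gene symbol, and each symbol matched 1 of the 52189 distinct genes of the deposited table. The SAFB RIP (2 libraries) used an antibody against SAFB and the IgG RIP (2 libraries) used control IgG. All 4 libraries came from nuclei of AML12 cells, grown with serum, an insulin, transferrin and selenium supplement and dexamethasone, and crosslinked with ultraviolet light. AML12 is an immortalised, non-tumour hepatocyte line derived from a mouse with a transgene for human TGF-alpha. The series was designed to find RNAs that associate with SAFB, so the question for each transcript was whether more of it came down with the SAFB antibody than with IgG.

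Cells answer broken DNA with kinases that sense the break and phosphorylate many proteins, with mediator proteins that gather on the chromatin beside it, and with enzymes that rejoin or recopy the strands. ATM, ATR and DNA-PKcs (encoded by Prkdc) are the kinases. RAD50 and PARP1 meet the broken end, MDC1, 53BP1 (encoded by Trp53bp1) and RIF1 act on the flanking chromatin, and BRCA1 and BRCA2 serve homologous recombination. SAFB is a nuclear matrix protein with binding domains for RNA and for scaffold-attachment DNA, and in human cells it has been mapped to purine-rich RNA and seen to gather briefly at damaged chromatin.

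The values are TPM, each transcript's length-scaled share of a library. Read depth is not kept by TPM and is unknown here, so no counting interval is given. The labels give a dish for each sample and a lysate shared out between both antibodies, but do not say that the 2 libraries of a group came from independent cultures, so errors and p-values measure only the spread between these libraries. With so few libraries the smallest two-sided p of an exact permutation test is 0.333, and limma across 16647 tested genes was used instead. The IgG libraries differed from each other by a median of 0.37 in log2(TPM + 1), against 0.166 between the SAFB libraries. AY036118, Gm26917 and Gm42418, noncoding RNAs at a ribosomal DNA fragment, took 1.002% and 1.52% of the TPM of the SAFB libraries but 18.7% and 14.8% of the IgG libraries, which lowers all other TPM values in the IgG RIP. In bulk precipitates of this kind, more of a transcript bound and less of other RNAs cannot be told apart, and the input was not analysed here, so abundance in the nucleus is not known. Of 10 hepatocyte markers 9 reached 1 TPM in some library, Ahsg in IgG RIP replicate 1 alone (1.91 TPM), while Cps1 stayed under 1 TPM. Hepatocyte sums were 4589 and 4742 TPM in the SAFB RIP and 5135 and 5566 TPM in the IgG RIP, mostly from Trf and Ttr. Cholangiocyte markers reached 1 TPM in 3 of 4 genes, with sums of 869.9 and 900.5 TPM in the SAFB RIP against 1265 and 910.0 TPM in the IgG RIP. Of the other lists 1 of 4 macrophage, 0 of 3 endothelial and 1 of 5 fibroblast genes did, with sums of at most 31.8 TPM, and Adgre1, Lyz2, Cdh5, Dcn and Acta2 were listed at 0 throughout.

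The members differ in how often their transcripts hold the purine run GAAGAA, and stretches from some of them are printed here. Each is the 90-base coding stretch, within 1 exon of the longest coding transcript, with the most copies of GAAGAA (the most 5′ one where several tie). They come from GENCODE release M21 on mm10, read 5′ to 3′ on the sense strand, which alone was searched, with capitals for GAAGAA.
Rad50 (chr11:53684151-53684240, minus strand, exon 12 of 25): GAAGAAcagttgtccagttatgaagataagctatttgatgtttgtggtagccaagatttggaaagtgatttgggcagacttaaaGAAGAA
Rif1 (chr2:52111186-52111275, plus strand, exon 30 of 36): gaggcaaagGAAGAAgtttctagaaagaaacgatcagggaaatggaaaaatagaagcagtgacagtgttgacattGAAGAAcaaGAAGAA
Trp53bp1 (chr2:121236780-121236869, minus strand, exon 12 of 28): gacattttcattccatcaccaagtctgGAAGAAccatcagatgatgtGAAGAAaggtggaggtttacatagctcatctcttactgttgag
Brca1 (chr11:101531005-101531094, minus strand, exon 7 of 23): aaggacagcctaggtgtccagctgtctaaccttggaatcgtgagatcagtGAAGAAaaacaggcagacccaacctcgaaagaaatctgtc
Prkdc (chr16:15648888-15648977, plus strand, exon 3 of 86): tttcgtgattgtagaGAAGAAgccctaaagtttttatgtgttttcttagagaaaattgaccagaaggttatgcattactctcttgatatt
Rad50 and Rif1, with 13 and 16 copies in the whole transcript, are among the members most strongly recovered with SAFB. Trp53bp1 has 18 copies but a small fold change, Brca1 has 9 copies and a large one. Prkdc has 9 copies in a very long transcript and the smallest fold change. Of members not printed, Brca2 also has 18 copies, with a log2 fold change of 1.32, and Atr has 7, with 0.64. Of 11961 tested protein-coding genes, 82.3% have GAAGAA somewhere in the transcript, 19.7% have a 90-base coding stretch with at least 2 copies and 4.77% one with at least 3. A match is a description of the letters and not a binding site.

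Of the 10 transcripts, 7 rose in the SAFB RIP, 0 fell and 3 missed the limma threshold, a Benjamini-Hochberg adjusted p under 0.05. Over all genes tested, 29.8% were called higher and 8.3% lower. All 10 members were tested, and each fold change pointed upward. Their median log2 fold change was 1.12, against 0.46 over all genes, so every change is also given relative to that shift, after centring each library on its median. After that centring 4 rose (Rad50, Brca1, Rif1 and Atm), against 16.4% of all genes, and the members' median was 0.66. With TPM rescaled over protein-coding genes alone, 6 rose, against 21.7% of those genes. In 9 members, all but Atr, the lower SAFB library still exceeded the higher IgG library, as it did in 52.3% of all genes. Summed over the members, the level was 781.3 and 781.9 TPM in the SAFB libraries and 310.7 and 333.1 TPM in the IgG libraries.

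**Figure D1:**
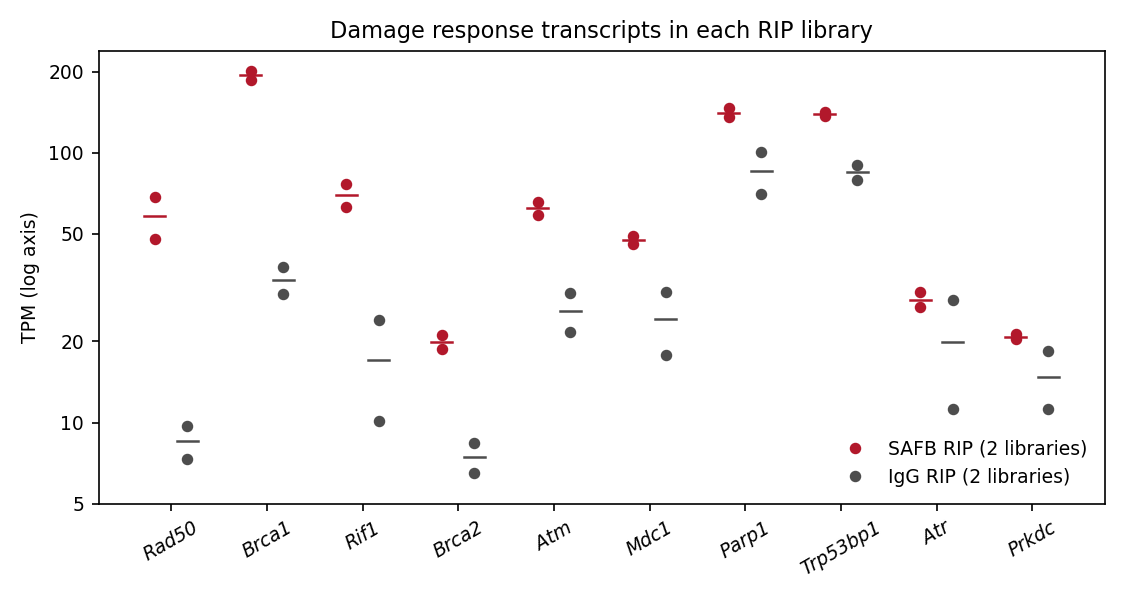
TPM (log axis) of the 10 damage response transcripts in each of the 2 SAFB RIP libraries (red, left of each pair) and 2 IgG RIP libraries (grey); short bars are group means. Brca1 reached 201 and 186 TPM with SAFB against 29.8 and 37.8 TPM with IgG, while the Atr points of the groups overlap.

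Among the break sensors, Rad50 had the largest fold change of the 10. RAD50 is the coiled-coil ATPase that, with MRE11 and NBS1, forms the complex that tethers broken ends and activates ATM. Its transcript stood at 48.1 and 68.6 TPM in the SAFB libraries, against 7.34 and 9.75 TPM in the IgG libraries. The SAFB libraries were far above the IgG libraries and also apart from each other. The log2 fold change was 2.63 ± 0.28 (SE; limma, adjusted p = 0.00691), which placed Rad50 above 96.0% of the genes tested, and it was 2.17 ± 0.27 after median centring (adjusted p = 0.00745). Parp1 encodes the abundant polymerase that attaches ADP-ribose chains to proteins at nicks and breaks. It had 146 and 136 TPM in the SAFB libraries and 101 and 70.5 TPM in the IgG libraries. Parp1 was thus well recovered with either antibody, and on the log2 scale the nearest libraries of the groups were closer to each other than the IgG libraries were. It rose by 0.73 ± 0.20 (limma, adjusted p = 0.0471), just inside the threshold, and with libraries centred on their median it stood at 0.27 ± 0.22 and missed it (adjusted p = 0.379).

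Both homologous recombination genes among the members were higher, Brca1 by much more than Brca2. BRCA1, an E3 ubiquitin ligase with BARD1, promotes end resection. Brca1 reached 201 and 186 TPM in the SAFB libraries, against 29.8 and 37.8 TPM in the IgG libraries. Both SAFB values were the highest of any member, and neither group came near the other. Its log2 fold change was 2.49 ± 0.16 (limma, adjusted p = 0.00407), and 2.03 ± 0.15 after median centring (adjusted p = 0.00452), the smallest adjusted p of the members in both. BRCA2 acts on the DNA once it is resected. Brca2 had 18.8 and 21.1 TPM in the SAFB libraries and 8.40 and 6.48 TPM in the IgG libraries, the lowest mean of the 10 in both groups. It rose by 1.32 ± 0.28 (limma, adjusted p = 0.0261) and stood at 0.86 ± 0.30 after median centring, where it did not pass (adjusted p = 0.0818). Leaving out each library in turn gave 1.15 to 1.48 for Brca2 and 2.33 to 2.66 for Brca1.

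The 3 mediators differed among themselves. RIF1 is an effector of 53BP1 that holds back end resection and also times DNA replication. Rif1 stood at 63.1 and 76.6 TPM in the SAFB libraries, against 10.1 and 23.9 TPM in the IgG libraries. The groups were apart, although on the log2 scale the IgG libraries differed from each other by more than for any member but Atr. It rose by 2.08 ± 0.43 (limma, adjusted p = 0.0239), and by 1.62 ± 0.39 after median centring (adjusted p = 0.0337), and ran between 1.50 and 2.67 without 1 or the other IgG library. Trp53bp1, whose protein binds modified histones beside breaks and steers repair toward end joining, had 142 and 137 TPM in the SAFB libraries and 79.4 and 89.8 TPM in the IgG libraries. Its libraries agreed closely within each group, and it rose by 0.72 ± 0.11 (limma, adjusted p = 0.0141). After median centring it stood at 0.26 ± 0.11 and did not pass (adjusted p = 0.139). Its exons overlap those of Tubgcp4 on the opposite strand over 2130 bases, and whether counting used strand is not stated in the labels, so its values carry some uncertainty. Tubgcp4 itself had 78.7 and 84.4 TPM in the SAFB libraries and 94.5 and 88.6 TPM in the IgG libraries. Mdc1, whose protein reads phosphorylated H2AX and recruits RNF8, had 45.7 and 49.2 TPM in the SAFB libraries against 30.6 and 17.8 TPM in the IgG libraries. The groups were apart, but at 0.99 ± 0.29 it did not pass (limma, adjusted p = 0.0574), nor at 0.53 ± 0.31 after median centring (adjusted p = 0.236).

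The 3 kinases belong to 1 family of very large lipid-kinase-like enzymes, and 1 of the 3 passed. ATM answers broken ends. Atm had 65.9 and 59.0 TPM in the SAFB libraries and 21.6 and 30.3 TPM in the IgG libraries, well apart. It rose by 1.25 ± 0.21 (limma, adjusted p = 0.0163), and by 0.79 ± 0.20 after median centring (adjusted p = 0.0388). ATR answers single-stranded DNA at stalled forks. Atr had 30.4 and 26.7 TPM in the SAFB libraries, against 11.2 and 28.5 TPM in the IgG libraries, so that one IgG library lay between the SAFB libraries. Its log2 fold change of 0.64 ± 0.47 did not pass (limma, adjusted p = 0.334), and it moved to 0.00 when IgG RIP replicate 1 was left out. Leaving out IgG RIP replicate 2 instead gave 1.28, which passed (limma, adjusted p = 0.00290). Atr exons overlap the antisense genes 1700065D16Rik over 726 bases and Gm16794 over 462. 1700065D16Rik had 0.55 and 0.40 TPM with SAFB and was listed at 0 with IgG, and Gm16794 had 4.15 and 5.48 TPM with SAFB and 0 and 3.44 TPM with IgG. DNA-PKcs joins Ku on ends that are to be ligated. Prkdc had 20.3 and 21.3 TPM in the SAFB libraries and 11.3 and 18.4 TPM in the IgG libraries. Its groups did not overlap but came close, and at 0.50 ± 0.31 it did not pass (limma, adjusted p = 0.257). After median centring Prkdc stood at 0.04 ± 0.29 and Atr at 0.18 ± 0.43, both within 1 SE of 0.

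**Figure D2:**
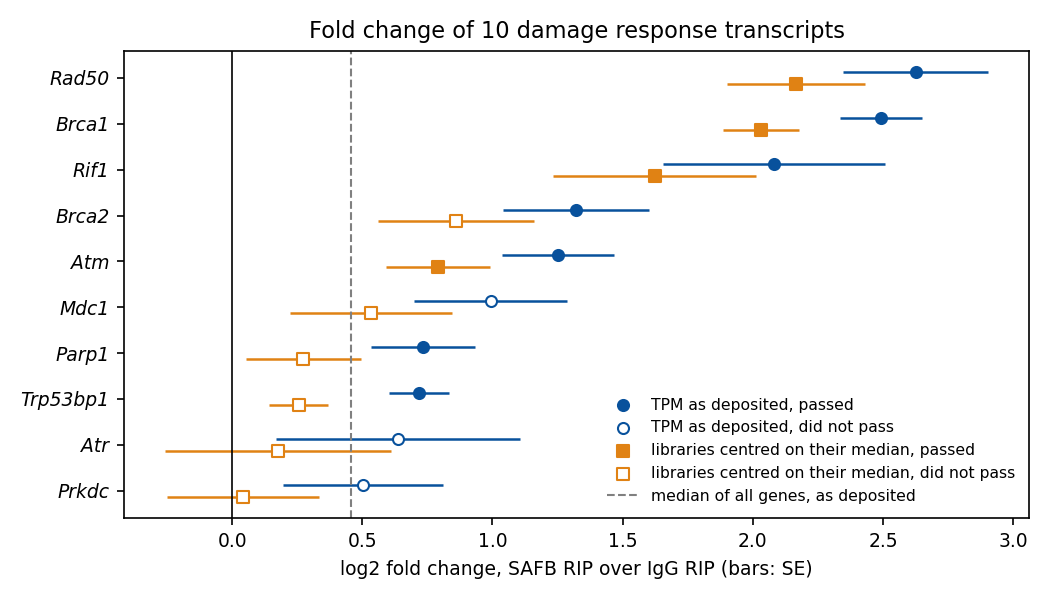
Log2 fold change of SAFB RIP over IgG RIP for each transcript, with SE bars, for TPM as deposited (blue circles) and after centring each library on its median (orange squares); filled symbols passed an adjusted p of 0.05 and open ones did not. Of the 7 filled blue symbols, 4 remain filled in orange, namely Rad50, Brca1, Rif1 and Atm, and the dashed line marks the median of all genes at 0.46.

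These calls rest on the spread of 2 libraries a group. Leaving out either SAFB library, with the genes tested held fixed, 0 members passed, the prior contributed 1.04 degrees of freedom, and 4.61% and 4.7% of all genes were higher. With the low-value filter applied again to the 3 libraries left, a choice made after the data were seen, the prior contributed 24.0 and 22.6, and Rad50, Brca1, Rif1 and Atm passed in both, among 13.4% and 15% of all genes. With IgG RIP replicate 1 left out 8 members passed, among 41.2% of all genes that were then higher. All 10 passed with IgG RIP replicate 2 left out, among 45.8%.

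The order of levels differed between the precipitates. With SAFB, Brca1 was highest at 194 ± 10.4 TPM (SD, n = 2), followed by Parp1 at 141 ± 7.32 and Trp53bp1 at 139 ± 3.35, whose libraries overlap each other. Rif1 at 69.9 ± 9.60, Atm at 62.4 ± 4.87 and Rad50 at 58.3 ± 14.6 TPM overlapped as well. With IgG, Parp1 at 85.7 ± 21.6 and Trp53bp1 at 84.6 ± 7.32 TPM were the highest and did not differ beyond their spread, and Brca1 came after them at 33.8 ± 5.60 TPM. Rad50, at 8.54 ± 1.70 TPM with IgG, ranked 9 of 10 there and 6 of 10 with SAFB. Brca2 was last in both, at 19.96 ± 1.63 TPM with SAFB and 7.44 ± 1.36 TPM with IgG.

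All 10 transcripts are long, and most are poor in G and C. Coding lengths ran from 3042 bases in Parp1 to 12384 in Prkdc, and all 10 members lie among the 20% of tested protein-coding genes with the longest coding sequence. In that bin 40.5% of genes were called higher with a median log2 fold change of 0.57, against 19.6% and 0.19 in the bin of shortest genes. GC content of the members had a median of 44.3%, against 50.5% over tested protein-coding genes. The 20% of genes lowest in GC, which hold 5 of the members, had a median log2 fold change of 0.95 with 48.2% called higher, and the 20% highest in GC had -0.36 with 7.40%. Across the 11961 genes log2 fold change had a Spearman rho of -0.51 with GC content, 0.18 with transcript length and 0.22 with the longest exon. All genes share the same 4 libraries, so these are descriptions with no p. The part of length and GC content in the members' fold changes was not tested beyond removing each trend. With the GC trend removed 6 members rose, at 2.21 for Rad50, 2.10 for Brca1, 1.77 for Rif1, 0.87 for Parp1, 0.82 for Atm and 0.42 for Trp53bp1, against 25.7% of all genes. With the length trend removed 4 rose, Rad50 at 2.60, Brca1 at 2.37, Rif1 at 1.87 and Parp1 at 0.79, against 28.1%. Brca2 at 1.03 and Atm at 0.99 were larger than Parp1 there but missed the threshold (limma, adjusted p = 0.0597 and 0.0506).

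Length and GC content did not order the members among themselves in the way that they ordered all genes, though 10 genes are few for such an order. All 10 also lie in the bin of longest coding sequence, and 5 in the bin lowest in GC. That narrows the range over which such an order could show. Prkdc, with the longest transcript at 12647 bases and 43.3% GC, had the smallest fold change, and Atr, at 40.8% GC, the next. Over the 10 members rho with log2 fold change was -0.38 for transcript length and -0.10 for GC content, and 0.43 for the longest exon, which is 3315 bases in Brca1, 3090 in Rif1 and 4809 in Brca2, but 1137 in Rad50. Density of GAAGAA in the whole transcript was 2.52 per kb in Rad50, 1.88 in Rif1, 1.37 in Brca1, 0.86 in Atr and 0.71 in Prkdc. Its rho was 0.73 over the members, which were chosen with earlier results known. Over the 11961 genes it was 0.34, where GC content had -0.51. Among the members Trp53bp1 (1.87 per kb), Brca1 and Atm (1.12 per kb) went against the order of density. What part any of these features has in the recovery was not tested. Counted per kb of coding sequence, the density gave a lower rho of 0.50 over the members and 0.32 over all of those genes. The share of purines, a measure added after the values were seen, gave rho of 0.79 over the members and 0.43 over all genes, with Rad50 at 58.2% above 98.7% of tested genes. Coiled-coil and other lysine- and glutamate-rich proteins use purine-rich codons, and what part the protein encoded has in such shares was not tested.

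**Figure D3:**
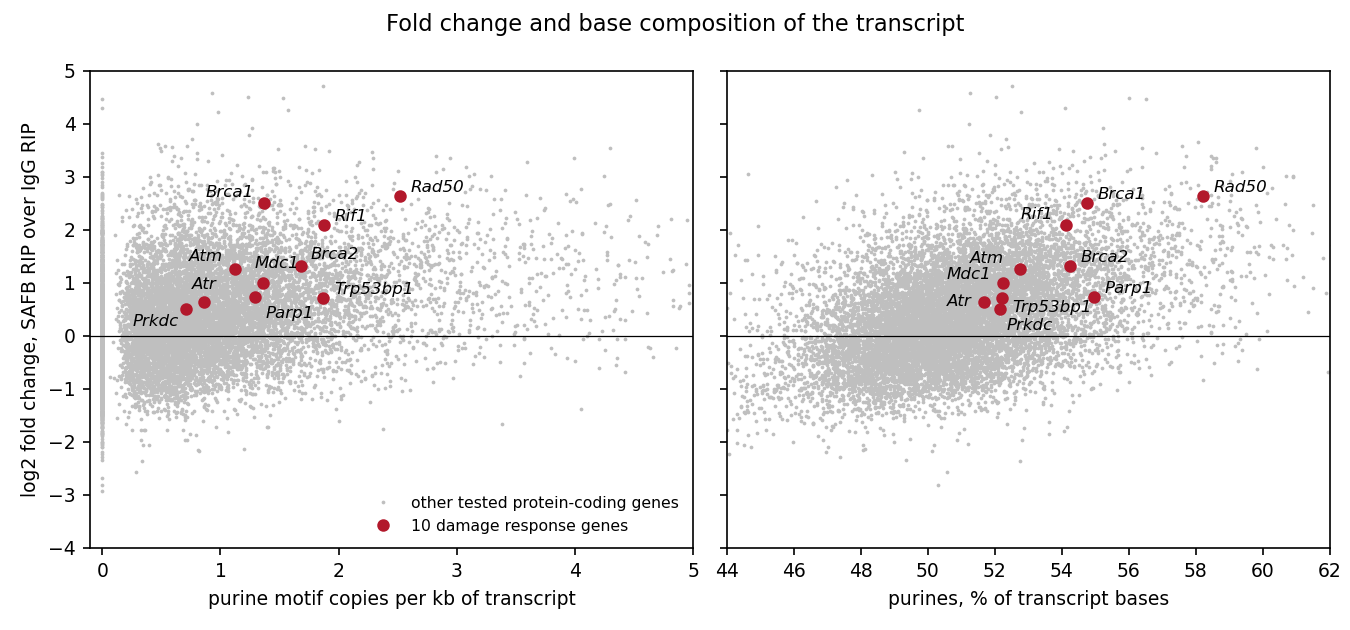
Log2 fold change of SAFB RIP over IgG RIP against GAAGAA copies per kb (left) and the percentage of purines (right) in the longest coding transcript, for 11961 tested protein-coding genes (grey) and the 10 damage response genes (red); 61 genes on the left and 58 on the right lie outside the axes. Rad50, at 2.52 copies per kb and 58.2% purines, lies to the upper right and Prkdc, at 0.71 copies per kb, to the lower left of the members.

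Other damage response genes, 130 in 9 roles and all of them tested, were recovered unevenly. In limma 42 rose and 6 fell, which is 32.3% and 4.62% and so close to the 29.8% and 8.3% of all genes. Their median log2 fold change was 0.52, against 0.46 over all genes and 1.12 for the 10 members. After median centring 22 rose and 19 fell, against 16.4% and 17.6% of all genes, so both directions were represented once the shift was taken out. As with the members, 0 passed when either SAFB library was left out with the genes tested held fixed. The list was drawn up from textbook roles, with earlier results of these data known.

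Of 16 genes for break sensing and chromatin signalling 7 rose (43.8%, against 29.8% of all genes) and 1 fell (6.25%, against 8.3%). The partners of RAD50 were both among them. Mre11a, the nuclease gene of the complex, had 55.8 and 63.4 TPM in the SAFB libraries against 20.4 and 21.9 TPM in the IgG libraries, and rose by 1.45 ± 0.16 (limma, adjusted p = 0.00755). Nbn, the gene for NBS1, had 20.3 and 16.6 TPM in the SAFB libraries against 5.69 and 4.38 TPM in the IgG libraries, and rose by 1.69 ± 0.31 (limma, adjusted p = 0.0187). All 3 transcripts of the complex thus rose, and all 3 also passed after median centring, where Mre11a stood at 0.99 and Nbn at 1.23. Uimc1, which encodes RAP80, the ubiquitin reader that brings BRCA1 to breaks, had the largest rise of the role at 2.75 ± 0.16, with 198 and 161 TPM in the SAFB libraries against 27.2 and 24.2 TPM in the IgG libraries. Babam1, a subunit gene of the same BRCA1-A complex, fell by 0.89 on the log2 scale, with 52.7 and 56.1 TPM against 100 and 103 TPM. The ubiquitin ligase genes Rnf8 (1.17 ± 0.17) and Rnf168 (1.29 ± 0.26), which act after MDC1, rose, and so did Rnf169 at 1.004 ± 0.18. Of these, Rnf168 (0.83) and Rnf169 (0.54) no longer passed after median centring. Bard1 at 1.13 ± 0.34 and H2afx, the histone read by MDC1, at -0.65 ± 0.20 did not pass (limma, adjusted p = 0.0607 and 0.0603), but H2afx passed as lower after median centring, at -1.11.

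Of 14 checkpoint signalling genes 5 rose (35.7%, against 29.8% of all genes) and 0 fell. Etaa1, whose protein activates ATR on RPA-coated DNA, had the largest rise at 2.64 ± 0.35, with 15.0 and 13.5 TPM in the SAFB libraries and 1.07 and 1.88 TPM in the IgG libraries. Topbp1, which encodes the other activator of ATR, rose by 0.66 ± 0.18 as deposited (limma, adjusted p = 0.0449) but missed the threshold after centring, at 0.20. Cdc25a, the phosphatase gene that checkpoints act on, rose by 1.11 ± 0.22, and stood at 0.65 after median centring without passing. Atrip, the gene for the partner of ATR, at -0.62 ± 0.50, and the kinase genes Chek1 at 0.39 ± 0.36 and Chek2 at -0.06 ± 0.66 did not pass. IgG libraries of Chek2 lay at 42.6 and 10.8 TPM on either side of the SAFB libraries, at 20.5 and 21.1 TPM. Rad9a, of the clamp loaded at damage, did not pass at -0.33 ± 0.18, yet on the median-centred scale it stood at -0.79 and passed. Hus1, of the same clamp, went the other way and rose by 1.40 ± 0.32, but at 0.94 after centring it did not pass. Rad1, also of the clamp, did not pass at -0.26 ± 0.52.

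Of 18 homologous recombination genes 2 rose (11.1%, against 29.8% of all genes) and 0 fell as deposited. After median centring 1 was higher and 1 lower, against 16.4% and 17.6% of all genes. Wrn, the Werner helicase gene, rose by 1.88 ± 0.25, with 50.5 and 48.9 TPM in the SAFB libraries against 10.5 and 15.5 TPM in the IgG libraries. Palb2, whose protein joins BRCA1 to BRCA2, had 13.2 and 11.7 TPM in the SAFB libraries and 2.74 and 8.76 TPM in the IgG libraries, and did not pass at 1.15 ± 0.55 (limma, adjusted p = 0.164). Rad52 at 0.27 ± 0.16 and Rpa3 at -0.71 ± 0.25 did not pass either, though Rpa3 was lower after median centring, at -1.17. Of 12 end joining and shieldin genes 5 rose (41.7%, against 29.8% of all genes) and 0 fell. Both Ku genes, which encode the ring that DNA-PKcs binds, were among the 5. Xrcc5 rose by 1.30 ± 0.13, with 101 and 90.1 TPM in the SAFB libraries against 39.4 and 37.0 TPM in the IgG libraries, and Xrcc6 by 0.82 ± 0.12, though Xrcc6 missed the threshold after centring, at 0.36. Fam35a, which encodes shieldin subunit SHLD2, an effector that acts with 53BP1 and RIF1, rose by 2.55 ± 0.22. Dclre1c, the Artemis nuclease gene, stood at 0.01 ± 0.18.

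Mismatch repair had the largest share, with 6 of 7 higher (85.7%, against 29.8% of all genes) and 0 lower as deposited. After median centring 5 of 7 were higher, against 16.4% of all genes. The median was 1.49 as deposited and 1.03 after centring. Msh6, which encodes a subunit of the dimer that finds mismatches, rose by 2.50 ± 0.18, with 98.9 and 92.1 TPM in the SAFB libraries against 14.1 and 18.2 TPM in the IgG libraries. Mlh3, another gene of the role, rose by 2.53 ± 0.36. The share of this role was not tested against that of the other roles. Of 20 genes for single-strand break and base excision repair 6 rose (30.0%, against 29.8% of all genes) and 1 fell (5.0%, against 8.3%). After median centring 1 gene of this role was higher and 2 lower, against 16.4% and 17.6% of all genes, with a median of -0.06. The gene that fell is not reported here. Parp2, the paralog of Parp1, rose by 1.003 ± 0.19 and Parg, which encodes the enzyme that removes ADP-ribose chains, by 1.50 ± 0.28, and Parp3 (0.47 ± 0.12) and the glycosylase gene Mpg (0.51 ± 0.12) also passed as deposited. After median centring Parg still passed at 1.04, whereas Parp2 at 0.54, Parp3 at 0.01 and Mpg at 0.05 did not.

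Of 15 Fanconi anaemia genes 4 rose (26.7%, against 29.8% of all genes) and 0 fell. Fan1, a nuclease gene, rose by 2.24 ± 0.19 and Slx4, a nuclease scaffold gene, by 1.47 ± 0.29. Mus81 at -0.51 ± 0.21 did not pass. After median centring Fan1 passed at 1.78, Slx4 at 1.01 did not, and Mus81 was lower at -0.97. Of 14 nucleotide excision repair genes 3 rose (21.4%, against 29.8% of all genes) and 2 fell (14.3%, against 8.3%). Ercc5 (2.35 ± 0.14), Ercc6 (1.63 ± 0.13) and Xpc (0.90 ± 0.11) rose, though Xpc missed the threshold after centring, at 0.44. Ddb1, the adaptor of a ubiquitin ligase and the most abundant gene of the role, fell by 0.66 on the log2 scale, with 542 and 592 TPM in the SAFB libraries against 914 and 880 TPM in the IgG libraries, and Ercc1 fell by 0.99. Of p53 and its target genes 4 of 14 rose (28.6%, against 29.8% of all genes) and 2 fell (14.3%, against 8.3%). Their median, 0.15, was the lowest of the roles. After median centring 1 was higher and 6 lower, against 16.4% and 17.6% of all genes, with a median of -0.31. Rrm2b, a ribonucleotide reductase gene, rose by 1.41 ± 0.26 and Mdm2, the ligase gene for p53, by 0.53 ± 0.12 as deposited, though Mdm2 stood at 0.07 after median centring. Bax, an apoptosis gene, fell by 1.22 on the log2 scale, and Mdm4 at -0.10 ± 0.09 did not pass, though it was lower after centring, at -0.56.

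**Figure D4:**
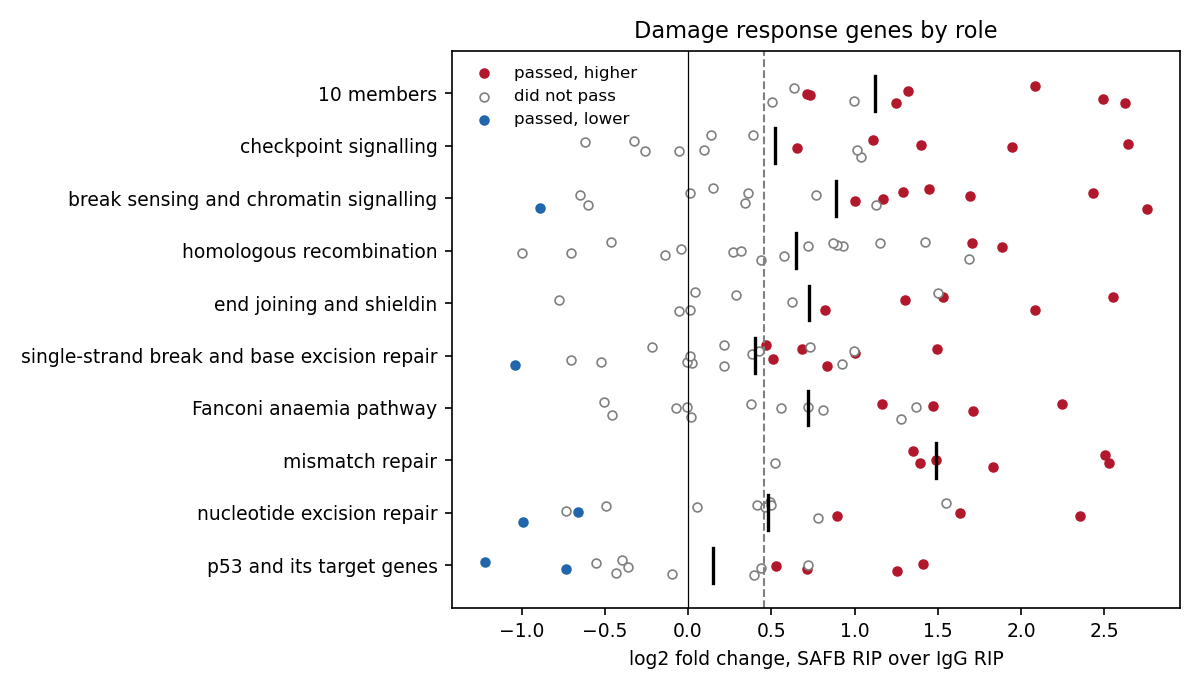
Log2 fold change of SAFB RIP over IgG RIP for the 10 members (top row) and 130 other damage response genes by role; red points passed as higher, blue as lower, open ones did not pass, black bars are medians and the dashed line is the median of all genes at 0.46. The members' median of 1.12 and that of mismatch repair at 1.49 lie to the right of the line, and that of p53 and its targets at 0.15 to the left.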

How the data were processed

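RIP-seq of AML12 nuclei gave 2 SAFB RIP and 2 IgG RIP libraries. Their values were deposited by the authors as TPM in a table of 52197 entries. Tools named in the submitters' processing notes, with no role or version, are StringTie, HTSeq, HISAT2 and DESeq2, and the build is mm10. Which tool made the TPM, which annotation was used and whether strand was used are not stated in those notes. Entries with the same identifier were summed.

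A gene was tested if 2 or more of the 4 libraries reached 1 TPM, which 16647 did. Tests ran on log2(TPM + 1), a scale that understates the change of low genes. The 2 groups were compared with limma 3.58.1 (R 4.3.3), two-sided, using a variance trend. Benjamini-Hochberg adjustment ran over all genes tested, and 0.05 was the threshold. The residual had 2 degrees of freedom and the prior contributed 2.5. Errors of fold changes are SE.

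GENCODE M21, of the mm10 assembly, matched 52042 identifiers and gave features of each gene's longest coding transcript. Members and gene lists were chosen with earlier results of these data known. All members are named, and some other genes are not reported here. Within each other role the rule picks the 3 genes with the highest mean TPM and the largest change in each direction among those that passed. Direct partners of members may be named too, and Hus1 and Rad1 are named beside Rad9a, of the same clamp. Not every gene picked by the rule is named in the text. Of 132 other genes listed, Shld1 and Shld3 were not analysed here. In all, 15 alternatives were planned and 4 added after the data were seen.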

Additional observations from a re-analysis of the deposited data

How the results depend on the processing

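No member fell under any of the 19 alternatives. Over the 20 settings Rad50, Brca1 and Rif1 passed in 18, Atm in 17, Trp53bp1 in 13, Brca2 in 12, Parp1 in 10, Mdc1 in 7 and Atr and Prkdc in 2. The share of all genes called moved with the setting too, so a count given here without its share cannot be set against one. Members higher numbered 7 as reported, against 29.8% of all genes, and 4 after median centring, against 16.4%. They also numbered 4 after removal of the transcript length trend, against 28.1%, and after quantile normalization, for which the share is not reported here. Leaving out 1 library gave 0 to 10, or 4 to 10 with the filter applied again to the libraries left. The members' median of 1.12 became 1.15 with a pseudocount of 0.1 TPM, 0.95 with 5 TPM, 0.66 after median centring, 0.72 after quantile normalization, 0.84 with protein-coding genes alone, 0.91 and 0.88 without the length and the GC trend, and 1.09 to 1.22 with 1 library left out, among them 1.19 without IgG RIP replicate 1. Among other damage response genes, the 42 higher became 22 after median centring, 25 after quantile normalization and 0 to 68 with 1 library left out, or 20 to 68 with the filter applied again, among them 21 without SAFB RIP replicate 2. The 6 lower became 19 under median centring, quantile normalization and protein-coding genes alone, and 0 to 14 with 1 library left out, or 4 to 16 with the filter applied again, among them 15 without IgG RIP replicate 2. Fits without a library rest on 1 residual degree of freedom, and the lone library of a group is assumed to vary like the other group.

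Signs turned for genes that did not pass as reported. With 1 library left out Atr ran from -0.00154 to 1.28, Chek2 from -1.001 to 0.89, Atrip from -1.31 to 0.0707 and Dclre1c from -0.134 to 0.16, with -0.0423 without SAFB RIP replicate 1. Chek2 passed at both of its ends, without 1 or the other IgG library, and Atr at 1.28 and Atrip at -1.31 passed too. Chek1 stood at -0.0672 after median centring and -0.24 after quantile normalization. Rad52 stood at -0.188 and -0.0361 there and at -0.0248 with protein-coding genes alone, and Dclre1c at -0.447, -0.313 and -0.282. Without the GC trend Dclre1c stood at -0.367, Rad9a at 0.0577, H2afx at 0.0962 and Mus81 at 0.205. Without the length trend Chek2 stood at 0.0929 and Mdm4 at 0.0689. None of these genes passed at the values listed here for a scaling or trend setting. Rad9a, H2afx, Mus81 and Mdm4, listed here for a trend setting alone, did pass as lower after median centring. Why a trend removal moved a value was not tested.

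Replicate numbers were shared between the groups, but deviations of same-numbered libraries from their group means correlated at only -0.0247, so the numbers were not taken as pairs. Per the labels each nuclear lysate was shared out between the antibodies, but equal numbers are not tied to 1 lysate. A fit with the replicate number as a block called 8 members higher, the added one being Mdc1. Of the other damage response genes it called 40 higher and 6 lower. That fit had 1 residual degree of freedom, and the prior contributed 6.05. Its share of all genes called is not reported here, so these counts cannot be set against such a share. Read depth is unknown, so what it limits cannot be stated.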
